A study of Mus musculus with 6 samples.

Results

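*Ets2* and 9 of its relatives in the ETS family of transcription factors were followed in thymocytes that carried, or lacked, the *SCL* and *LMO1* oncogenes. The genes were *Ets2*, *Ets1*, *Fli1*, *Erg*, *Etv6*, *Elf1*, *Elf4*, *Gabpa*, *Elk3* and *Spi1*, and a probe set was taken where the platform annotation named exactly 1 of these 10 genes. This gave 18 of the 22690 probe sets on the array. *Ets2* was chosen by its difference in this same comparison, and its relatives were selected with earlier results of these data known, so the differences below are a description of the family and support nothing by themselves.

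RNA came from thymocytes of untreated C57BL6 mice aged 3 weeks. Of the 6 arrays, 3 were labelled SCLtg LMO1tg (*Cd3e*-/- mice with *SCL* driven by the *Sil* promoter and *LMO1* driven by the *Lck* promoter) and 3 were labelled control (*Cd3e*-/- mice without the transgenes). All mice therefore lacked *Cd3e*, part of the receptor complex that thymocytes need to pass the double negative stage, so each array sampled an arrested early T-lineage population. Each array gave log2 values computed by RMA, a method that merges the probes of a probe set into 1 number, and these values allow comparison between arrays for a given probe set but not between probe sets. Nothing read here states if each array had its own animal, so the errors may be technical in part, and in bulk RNA fewer cells of a type and less RNA per cell cannot be told apart.

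ETS factors share a winged helix-turn-helix domain that contacts DNA at a GGAA core. Their activity depends on what they bind with and on signalling: ETS1 and ETS2 are phosphorylated downstream of RAS and ERK, the ternary complex factors ELK1, ELK3 and ELK4 act with SRF, GABPA needs its GABPB partner, ETV6 represses, and FLI1 and ERG occupy blood stem cell enhancers with SCL, LYL1, LMO2, GATA2 and RUNX1. In the thymus, ETS1 is needed for early T-cell development, whereas PU.1, the product of *Spi1*, is active in the earliest progenitors and is shut off at commitment to the T lineage.

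The letters that ETS factors read are shown at the start of *Ets2*, whose difference was the largest of the family, and beside it at the start of *Gabpa*, a relative on the same chromosome 16. Both windows run from 250 bases before to 50 bases after the annotated start and are RefSeq sequence of build GRCm38.p6 on the plus strand, *Ets2* at chr16:95702157-95702456 and *Gabpa* at chr16:84834874-84835173. Capitals mark GGAA, or TTCC where the core lies on the other strand.
Ets2: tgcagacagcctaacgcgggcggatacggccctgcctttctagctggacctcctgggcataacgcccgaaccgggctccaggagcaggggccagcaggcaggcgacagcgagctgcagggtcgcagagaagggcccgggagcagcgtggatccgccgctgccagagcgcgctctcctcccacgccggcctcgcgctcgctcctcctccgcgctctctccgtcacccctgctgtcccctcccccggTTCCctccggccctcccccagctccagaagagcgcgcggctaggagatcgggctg
Gabpa: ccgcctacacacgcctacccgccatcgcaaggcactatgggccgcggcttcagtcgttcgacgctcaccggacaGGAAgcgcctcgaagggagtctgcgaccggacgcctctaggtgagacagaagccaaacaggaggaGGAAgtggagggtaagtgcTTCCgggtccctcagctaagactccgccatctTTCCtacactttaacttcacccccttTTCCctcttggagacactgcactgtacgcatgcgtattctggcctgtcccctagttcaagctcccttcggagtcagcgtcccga
The *Ets2* window held 1 such core, 5 bases before the start, and the *Gabpa* window held 5. Of 32851 windows of this length in the RefSeq table, 96% held at least 1 core on either strand, with a median of 3. The E-box CANNTG, read by SCL with its E-protein partners, was in neither window and in 72.3% of all windows. GATA, read by GATA factors in the same complexes, was in the *Ets2* window once and in 57.9% of all windows. These matches describe letters only. The table held windows for 7 of the 10 genes.

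The labels were first set against the transgenes. The *Lmo1* probe set (1418478_at) had 5.11, 5.07 and 4.86 in the arrays labelled SCLtg LMO1tg, against 6.64, 6.84 and 6.77 in the arrays labelled control, a log2 difference of -1.74 (SE 0.14, limma adjusted p = 0.00161). The probe set of *Tal1*, which encodes SCL, was weak in every array, at 4.55, 4.63 and 4.71 in the arrays labelled SCLtg LMO1tg and 4.35, 4.27 and 4.44 in those labelled control. The *Tal1* groups did not overlap, with the SCLtg LMO1tg arrays higher by 0.28 on the log2 scale, but the probe set was below the filter and was not tested. *Lmo1* thus went against the labels and *Tal1* did not, and every direction below is that of the arrays as labelled: with the labels exchanged, each sign turns. The study gives *Ets2*, and also *Lyl1* and *Slc4a1* (in its kept probe sets, below), the opposite direction to the one found here.

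Whole-array facts were few. A filter that asked for 3 or more of the 6 arrays at or above the array's own 40th percentile left 13776 probe sets, and 14 of these passed limma at an adjusted p under 0.05, 7 higher and 7 lower. The mean of 18 bacterial hybridization control probe sets, spiked into every array, was 10.40, 8.91 and 9.0 in the arrays labelled SCLtg LMO1tg and 9.49, 10.57 and 10.62 in those labelled control. SCLtg LMO1tg 1, control 2 and control 3 therefore formed a high set, and SCLtg LMO1tg 2, SCLtg LMO1tg 3 and control 1 a low set. No label names a batch, and differences within each set are given below where they bear on a member. The 3′ minus 5′ difference of the *Actb* control probe sets, a sign of RNA quality, lay between 2.26 and 2.71 in the arrays labelled SCLtg LMO1tg and between 1.48 and 2.86 in those labelled control. For *Gapdh* it was 3.51, 3.12 and 3.10 in the SCLtg LMO1tg arrays and 3.17, 2.38 and 3.01 in controls, so control 2 was lowest on both. Without control 2 the *Ets2* difference was 1.34 (limma adjusted p = 0.344, against 0.0588 with all 6 arrays). *Cd3e* itself, at 8.56, 8.53 and 8.65 in the SCLtg LMO1tg arrays and 8.41, 8.42 and 8.72 in controls, did not mark the deletion, and where its probes lie relative to the deleted part is not stated in the labels.

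*Ets2*, an ETS factor activated by RAS and ERK signalling, had the largest difference of the family, and it was chosen by that difference. Its single probe set (1416268_at) had 8.50, 9.06 and 8.97 in the arrays labelled SCLtg LMO1tg, against 7.75, 7.50 and 7.27 in those labelled control. Every SCLtg LMO1tg array lay above every control array, and the gap between the groups was wider than the spread within either. The means were 8.84 ± 0.30 and 7.50 ± 0.24 (SD, n = 3 each), a log2 difference of 1.34 (SE 0.19, 95% interval 0.90 to 1.78) or 2.53-fold. Among the 13776 probe sets this was the 13th largest positive difference, and it took the 10th place for higher values by rank product. The difference was 1.12 within the high set and 1.27 within the low set. Since the groups did not overlap, both had to be positive, and nothing is read from their sign. In the limma fit across all probe sets the adjusted p was 0.0588, which missed 0.05. With 1 value per gene (the probe set of highest mean, 8693 genes) it was 0.0318.

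Markers of another cell type ran with the labels beside *Ets2*. A list of 16 neutrophil and monocyte genes had 16 kept probe sets, of which 11 had positive and 5 negative differences, 7 of the positive ones at an unadjusted p under 0.05, where 6.18% of all kept probe sets were higher, and none past the adjusted threshold. The mean over the list was 7.07, 6.65 and 7.26 in the SCLtg LMO1tg arrays, against 5.89, 6.36 and 6.43 in controls. The granule genes *S100a8* (2.09), *Ngp* (1.76) and *Camp* (1.54) had the largest log2 differences, whereas *Elane* (-0.12), *Csf3r* (-0.05) and *Mmp8* (-0.02) lay near 0. *Csf1r* had the most negative values, -0.22 for 1419873_s_at and -0.19 for 1423593_a_at, but 0.12 for 1419872_at. The groups of 1423593_a_at did not overlap. *Itgam* and *Cd177* were below the filter. Over the 6 arrays the Pearson correlation with *Ets2* was 0.80 for *S100a8*, 0.68 for *Ngp* and 0.65 for *Camp*. It was -0.53 for *Elane*, -0.36 for *Csf3r* and -0.02 for *Mmp8*, and these values hold the label difference. The part of neutrophils and monocytes in the *Ets2* difference was not tested.

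**Figure D1:**
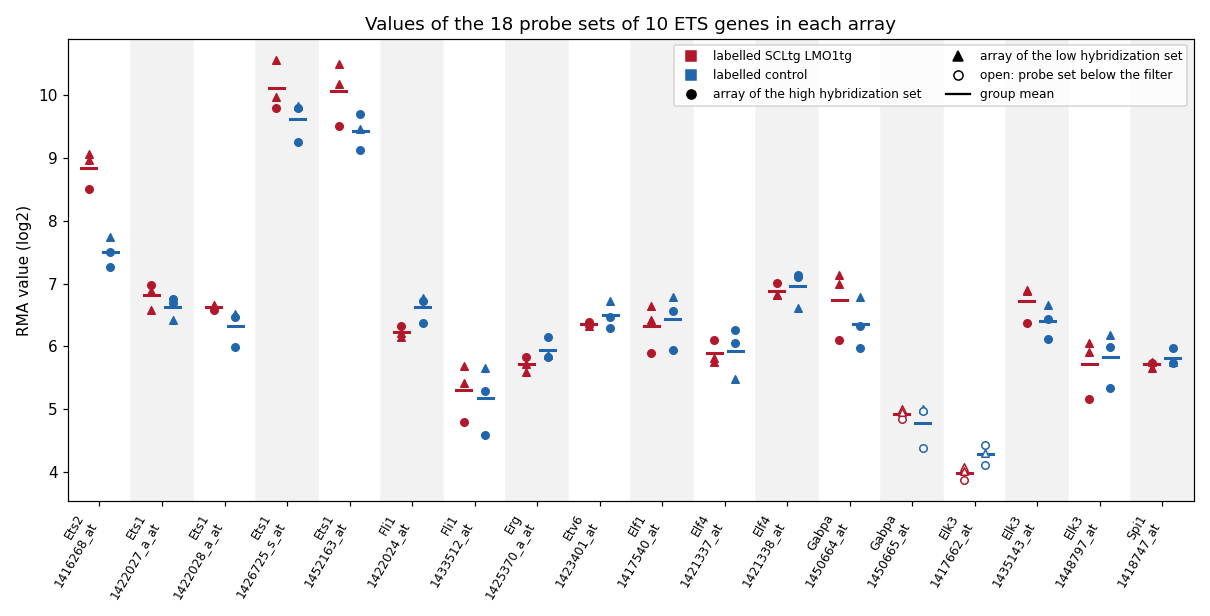
RMA values (log2, vertical axis) of the 18 probe sets in each array, with arrays labelled SCLtg LMO1tg in red at left and control in blue at right of each column, horizontal bars for group means, circles for the high and triangles for the low hybridization set, and open symbols for probe sets below the filter. The groups of *Ets2* are separated by a wide gap, at 8.50 to 9.06 against 7.27 to 7.75, and in most of the other columns the red and blue points overlap. Heights are not comparable between columns.

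*Ets1*, the closest relative of *Ets2* and the ETS factor best known in T cells, was measured by 4 probe sets, all with positive differences. The largest was that of 1452163_at, with 9.50, 10.18 and 10.49 in the arrays labelled SCLtg LMO1tg and 9.45, 9.70 and 9.13 in controls, a log2 difference of 0.63 (SE 0.25, limma adjusted p = 0.521). Array SCLtg LMO1tg 1 lay among the controls, and the difference was 0.09 within the high set and 0.88 within the low set. Probe set 1426725_s_at had 9.80, 9.97 and 10.56 in SCLtg LMO1tg arrays and 9.82, 9.79 and 9.25 in controls, with a log2 difference of 0.49 (SE 0.23), and its groups also overlapped. Probe set 1422028_a_at was the only one of the 4 whose groups stood apart, at 6.57, 6.64 and 6.66 in SCLtg LMO1tg arrays and 6.52, 5.99 and 6.46 in controls, although by a narrow margin (log2 difference 0.30, SE 0.17). The remaining one, 1422027_a_at, had 6.98, 6.58 and 6.88 in SCLtg LMO1tg arrays and 6.43, 6.76 and 6.69 in controls (log2 difference 0.19, SE 0.16). None of the 4 passed the adjusted threshold, and their 95% intervals ran between -0.18 and 1.20.

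*Fli1* and *Erg*, the ETS members of the stem cell enhancer complex with SCL and LYL1, had negative differences in 2 of their 3 probe sets. *Fli1* probe set 1422024_at had 6.33, 6.15 and 6.21 in the arrays labelled SCLtg LMO1tg, against 6.76, 6.72 and 6.38 in controls, a log2 difference of -0.39 (SE 0.16, limma adjusted p = 0.505). Its groups did not overlap, so the differences within the high set (-0.23) and the low set (-0.58) had to be negative. The second *Fli1* probe set, 1433512_at, gave 4.79, 5.42 and 5.69 in SCLtg LMO1tg arrays and 5.66, 5.30 and 4.59 in controls, a difference of 0.12 (SE 0.30). The 2 probe sets of *Fli1* thus differed in sign, and the second one followed the array sets (below) and not the labels. *Erg* (1425370_a_at) had 5.83, 5.59 and 5.72 in SCLtg LMO1tg arrays and 5.86, 5.83 and 6.15 in controls. Its groups overlapped slightly, with a log2 difference of -0.23 (SE 0.15, adjusted p = 0.654, 95% interval -0.57 to 0.12).

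The order of protein-coding genes in RefSeq places these relatives in adjacent pairs, *Erg* next to *Ets2* on chromosome 16 and *Fli1* next to *Ets1* on chromosome 9. In both pairs the 2 genes had differences of opposite sign, apart from the second *Fli1* probe set. *Psmg1*, a proteasome assembly factor on the other side of *Ets2*, had 7.59, 7.67 and 7.79 in SCLtg LMO1tg arrays and 7.53, 7.06 and 7.35 in controls (log2 difference 0.37, SE 0.16, adjusted p = 0.561). Over a wider list of 15 neighbours of *Ets2* and *Erg* with kept probe sets, 10 of 23 probe sets were positive, the median difference was -0.05, and *Vps26c* (0.48), *Hmgn1* (0.40) and *Psmg1* lay at the upper end. Around *Ets1* and *Fli1*, 9 of 22 probe sets of 15 genes were positive, with a median of -0.04 and *Jam3* (-0.33), *Rpusd4* (0.33) and *Adamts8* (-0.26) farthest from 0. None of these neighbours passed the adjusted threshold. The probe sets of the measured neighbours of *Ets2* and *Erg* ran between -0.36 and 0.48. *Ets2* lay above them, but it was chosen by its difference, so nothing is read from this.

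The repressor *Etv6* and the ELF factors *Elf1* and *Elf4*, which act in lymphoid cells, showed differences close to 0. *Etv6* (1423401_at) had 6.39, 6.38 and 6.33 in the arrays labelled SCLtg LMO1tg and 6.72, 6.47 and 6.29 in controls, a log2 difference of -0.13 (SE 0.15). *Elf1* (1417540_at) had 5.90, 6.42 and 6.64 in SCLtg LMO1tg arrays and 6.78, 6.57 and 5.94 in controls, a difference of -0.11 (SE 0.26). In both genes the groups overlapped. *Elf4*, a factor of quiescence in CD8+ T cells, had 6.10, 5.76 and 5.81 in SCLtg LMO1tg arrays, against 5.48, 6.06 and 6.26 in controls, for 1421337_at. For 1421338_at it had 7.01, 6.82 and 6.82 in SCLtg LMO1tg arrays, against 6.61, 7.11 and 7.14 in controls. Its groups overlapped in both, and its differences were -0.04 (SE 0.21) and -0.07 (SE 0.18), and both turned positive with the hybridization set in the fit (0.13 and 0.05). The 95% intervals of these 4 probe sets ran between -0.68 and 0.47, so a difference as large as that of *Ets2* lay outside each of them.

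*Gabpa*, the DNA-binding subunit of the GABP complex, had 6.10, 7.0 and 7.13 in the arrays labelled SCLtg LMO1tg and 6.79, 6.32 and 5.97 in controls (1450664_at). The groups overlapped, with a log2 difference of 0.38 (SE 0.29, adjusted p = 0.684), which was -0.05 within the high set and 0.28 within the low set. Without SCLtg LMO1tg 1 it was 0.71, and without SCLtg LMO1tg 3 it was 0.19. Its second probe set, 1450665_at, was below the filter, at 4.84, 5.01 and 4.95 in SCLtg LMO1tg arrays and 5.00, 4.98 and 4.39 in controls. *Elk3*, a ternary complex factor that represses SRF targets until ERK phosphorylates it, had 6.37, 6.88 and 6.90 in SCLtg LMO1tg arrays and 6.66, 6.44 and 6.12 in controls (1435143_at, difference 0.31, SE 0.20). A second *Elk3* probe set, 1448797_at, had 5.17, 5.92 and 6.06 in SCLtg LMO1tg arrays and 6.18, 5.997 and 5.34 in controls (difference -0.12, SE 0.28), so the 2 differed in sign and neither separated the groups. The third, 1417662_at, was below the filter, with 3.87, 4.08 and 4.01 in SCLtg LMO1tg arrays and 4.31, 4.43 and 4.11 in controls.

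*Spi1* encodes PU.1, a factor of myeloid cells and early progenitors, and its values differed little between the groups. Its probe set (1418747_at) had 5.74, 5.75 and 5.66 in the arrays labelled SCLtg LMO1tg and 5.74, 5.74 and 5.98 in controls, a log2 difference of -0.10 (SE 0.14, 95% interval -0.42 to 0.21). The groups overlapped, and only control 3 stood above the rest. This was measured in the same arrays in which the neutrophil granule genes given above had positive differences.

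Over the 16 kept probe sets of the 10 genes, 8 differences were positive and 8 negative, with a median of 0.04, against -0.00061 over all kept probe sets. No member passed limma at an adjusted p under 0.05, where 0.102% of all kept probe sets did. At an unadjusted p under 0.05 there were 3, *Ets2* and 1 probe set of *Ets1* higher and 1 of *Fli1* lower, where 8.86% of all did (6.18% higher and 2.67% lower). The groups did not overlap in 3 of the 16 (*Ets2*, *Ets1* 1422028_a_at and *Fli1* 1422024_at), where 13.2% of all did not. Since the genes were chosen with this contrast in view, nothing is read from these counts. Without *Ets2*, the differences of the other 15 ran between -0.39 and 0.63, with adjusted p between 0.505 and 0.949. None of the 15 passed in any alternative processing.

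The rest of the family lay within the same narrow band. The family list held 24 genes with a probe set on the array, and the 14 beyond the 10 above had 27 probe sets, of which 16, from 10 genes, were kept. *Etv2*, *Etv3*, *Etv4*, *Elf2*, *Elf3*, *Elk1*, *Elk4*, *Erf*, *Spib* and *Spdef* ranged in log2 difference between -0.33 (*Elk4* 1422233_at) and 0.19 (*Spib*), with 3 positive and 13 negative and none at an unadjusted p under 0.05. *Spib*, a relative of PU.1 expressed in B cells and plasmacytoid dendritic cells, had 7.32, 7.24 and 7.38 in SCLtg LMO1tg arrays and 7.28, 7.08 and 7.01 in controls, and its groups overlapped. *Elk4* 1422233_at had 7.21, 6.97 and 6.81 in SCLtg LMO1tg arrays and 7.08, 7.31 and 7.58 in controls. *Etv5*, *Elf5*, *Ehf* and *Spic*, the last 3 known from epithelia and from macrophages and B cells, had only probe sets below the filter. Over the 32 kept probe sets of the whole family, 11 were positive and 21 negative, with a median of -0.09.

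**Figure D2:**
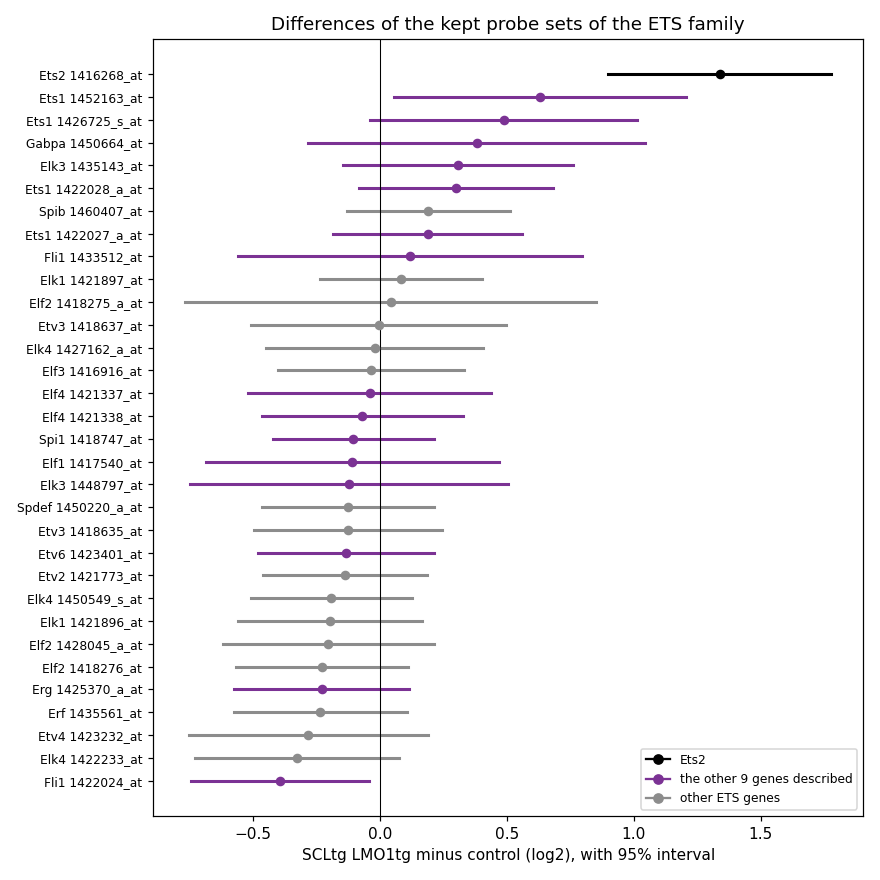
Log2 difference, SCLtg LMO1tg minus control (horizontal axis), with its 95% interval from limma, for the 32 kept probe sets of the ETS family, sorted by size; black is *Ets2*, purple the other 9 genes and grey the rest of the family. The interval of *Ets2* runs from 0.90 to 1.78, and the point of every other probe set lies between -0.39 and 0.63. The intervals of *Ets1* 1452163_at (up to 1.20), *Ets1* 1426725_s_at (up to 1.01) and *Gabpa* 1450664_at (up to 1.05) overlap that of *Ets2*.

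Several relatives varied among the arrays along the hybridization sets and not along the labels. In a fit with both, the low minus high set difference was 0.81 for *Gabpa* 1450664_at (SE 0.15, limma adjusted p = 0.053). It was 0.74 for *Fli1* 1433512_at (SE 0.20), 0.66 for *Elk3* 1448797_at (SE 0.19) and 0.58 for *Elf1* (SE 0.18). For *Gabpa* 1450664_at, *Fli1* 1433512_at, *Elk3* 1435143_at and *Ets1* 1426725_s_at every array of the low set lay above every array of the high set. Both probe sets of *Elf4* ran the other way, at -0.50 (SE 0.14) and -0.35 (SE 0.13), with no overlap between the sets. The share of all kept probe sets with such separations was not counted, so nothing is read from them. *Ets2* had a set difference of 0.44 (SE 0.13), and in the same fit its label difference was 1.19 (SE 0.13, adjusted p = 0.0131).

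Across the 16 member probe sets none passed the adjusted threshold for the set, where 1.12% of all kept probe sets did, and 8 had an unadjusted p under 0.05, 6 higher and 2 lower in the low set, where 26.8% of all did. In the wider family, *Elf2* 1418275_a_at had the largest set difference, 0.99 (SE 0.19, adjusted p = 0.054), beside a label difference of -0.29 (SE 0.19) in the same fit. This comparison was added after the values were seen. The sets were drawn from the spiked controls alone, and the sources used here do not give what set them apart.

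**Figure D3:**
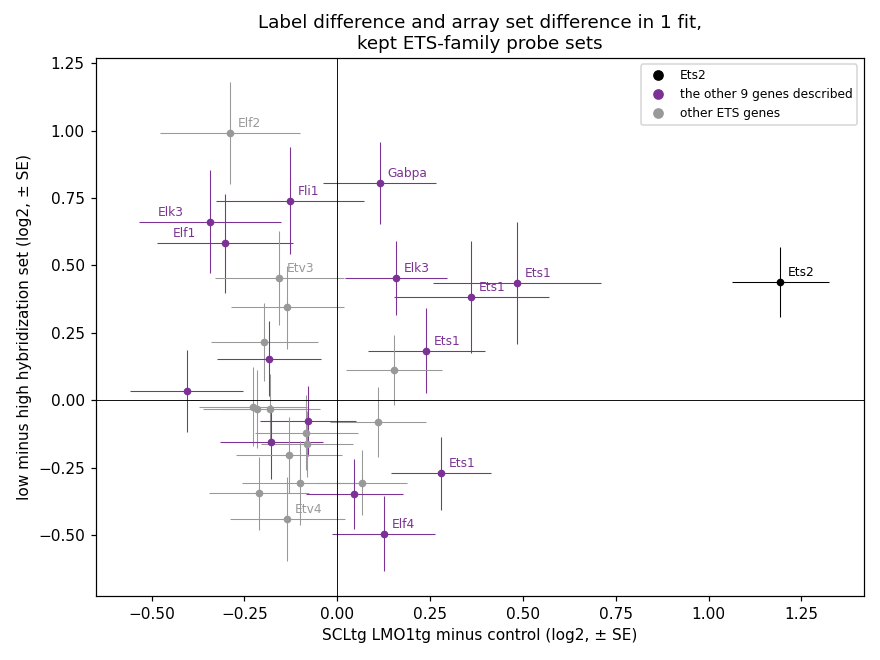
Log2 difference between labels (horizontal axis, SCLtg LMO1tg minus control) against log2 difference between array sets (vertical axis, low minus high hybridization set), each with ± SE from 1 limma fit holding both, for the 32 kept ETS-family probe sets. *Ets2* lies at 1.19 and 0.44, far to the right, whereas *Elf2*, *Gabpa* and *Fli1* extend upwards near 0 on the label axis.

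The complex that holds FLI1 and ERG at stem cell enhancers was looked at as a list of 13 genes, *Fli1* and *Erg* among them, of which 12 had kept probe sets. Of its 21 probe sets, 17 were negative, with a median of -0.22, where 49.8% of all kept probe sets were positive. Limma passed 1 as lower (*Lmo1*, above), where 0.102% of all passed. At an unadjusted p under 0.05, 4 were lower and none higher, where 2.67% of all were lower and 6.18% higher. These 4 were *Lmo1*, *Lyl1*, 1 probe set of *Runx1* and the *Fli1* probe set already given. *Lyl1*, the bHLH factor most similar to SCL, had 6.29, 5.75 and 5.92 in the arrays labelled SCLtg LMO1tg, against 7.40, 7.19 and 7.04 in controls. This log2 difference of -1.22 (SE 0.18, adjusted p = 0.0589) was of nearly the size of that of *Ets2* and of opposite sign, and its groups did not overlap. *Runx1* probe set 1427650_a_at had 5.77, 5.42 and 5.29 in SCLtg LMO1tg arrays and 6.07, 6.30 and 6.22 in controls (difference -0.70, SE 0.17, adjusted p = 0.284).

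Partners that meet ETS factors at DNA or as co-regulators had 24 kept probe sets from 14 genes, 5 positive and 19 negative, with a median of -0.09 and none past the adjusted threshold. After *Runx1*, *Cbfb* (0.33, SE 0.30), the RUNX partner, and *Irf8* (-0.29, SE 0.14), which pairs with PU.1, had the largest differences. The ERK cascade and its feedback genes, which feed ETS1, ETS2 and the ternary complex factors, had 6 positive and 7 negative probe sets and none at an unadjusted p under 0.05. Here *Etv4* (-0.28), *Ksr1* (-0.24), a scaffold of the cascade, and *Spred2* (-0.21), an inhibitor of it, were farthest from 0.

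Genes of ETS protein turnover and SUMO attachment had no probe set past the adjusted threshold. *Fbxw7*, a substrate receptor of an E3 ubiquitin ligase, had 7.60, 7.97 and 7.88 in SCLtg LMO1tg arrays and 7.37, 6.75 and 7.52 in controls for 1451558_at, a difference of 0.60 (SE 0.21, adjusted p = 0.475) with groups that did not overlap. *Cul4a* (0.40, SE 0.24) and *Cop1* (0.38, SE 0.31), parts of a ligase that marks ETS proteins for removal, had overlapping groups. Over the list 7 of 12 probe sets were positive, with a median of 0.10.

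T-lineage genes known to need ETS factors held 1 probe set that passed the test, as higher, where 0.102% of all kept probe sets passed. *Ptcra*, the pre-TCR alpha chain, had 10.35, 10.32 and 10.39 in the arrays labelled SCLtg LMO1tg, against 9.36, 8.96 and 8.90 in controls, a log2 difference of 1.28 (SE 0.16, limma adjusted p = 0.023). *Il7r*, the interleukin-7 receptor chain, had 9.14, 9.78 and 9.72 in SCLtg LMO1tg arrays and 8.76, 8.34 and 7.95 in controls (1448575_at, difference 1.20, SE 0.24, adjusted p = 0.191). *Rag1*, the recombinase of receptor genes, had a difference of 0.97 (SE 0.23, adjusted p = 0.273), with 11.16, 11.26 and 11.71 in SCLtg LMO1tg arrays and 10.66, 10.59 and 9.95 in controls. The groups of these 3 probe sets did not overlap. The study reports that SCL inhibits *Ptcra* in a double negative T-cell line, the opposite direction to that of these arrays as labelled. That result came from other cells than those on the arrays. The study also names *Ptcra* as a direct target of the E proteins HEB and E2A. In purified thymocytes of a double negative stage (DN3) from transgenic mice, it reports lower expression of E protein target genes with SCL and LMO1. Its text does not name the genes measured there. The list went both ways: 12 of its 25 probe sets were positive and 13 negative, with a median of -0.01. At an unadjusted p under 0.05, 4 were higher and 2 lower, where 6.18% of all kept probe sets were higher and 2.67% lower. Its mean lay between 8.28 and 8.38 in the SCLtg LMO1tg arrays and between 8.11 and 8.23 in controls.

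The targets of single members were set beside them. Targets of GABP had 34 kept probe sets from 17 genes, of which 31 were positive, with a median of 0.33, where 49.8% of all kept probe sets were positive. At an unadjusted p under 0.05, 14 were higher and none lower, where 6.18% of all were higher. These 14 came from 7 of the 17 genes, so they are not separate measurements. No probe set of the list passed the adjusted threshold. After *Il7r*, the largest differences were those of *Hmgcs1* of cholesterol synthesis, at 1.05 (SE 0.28), 0.95 (SE 0.25) and 0.84 (SE 0.21) in its 3 probe sets named by the rule, and of *Skp2* of the cell cycle, at 0.82 (SE 0.26) and 0.80 (SE 0.18). *Gabpa* itself did not separate the groups. The list median was 0.28 within the high set and 0.26 within the low set.

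Targets of PU.1 had 11 positive and 12 negative probe sets, with a median of -0.01, beside the flat values of *Spi1*. The lysozymes *Lyz1* (1.05, SE 0.32) and *Lyz2* (0.74, SE 0.23) and the proteinase *Prtn3* (0.45, SE 0.20) lay highest, and *Lyz2* and *Prtn3* are also on the neutrophil and monocyte list. SRF targets, to which the ELK factors bind, had 8 positive and 9 negative probe sets, with a median of -0.03. *Actb* 1419734_at (-1.12, SE 0.41), *Ier2* (-0.48, SE 0.20) and *Mcl1* 1456381_x_at (0.38, SE 0.20) were farthest from 0, and none passed the adjusted threshold.

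**Figure D4:**
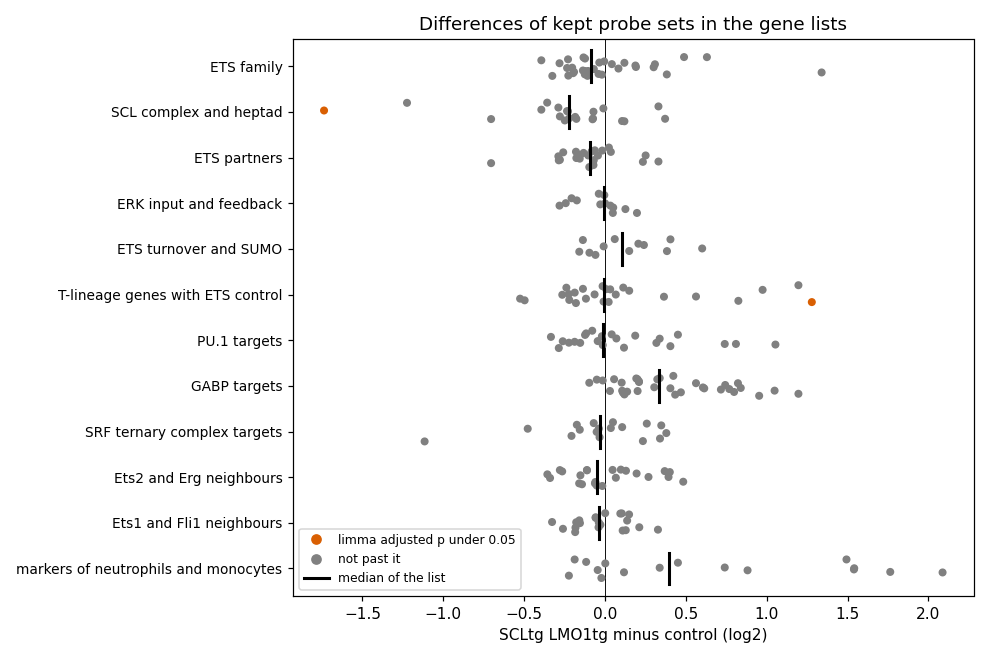
Log2 difference, SCLtg LMO1tg minus control (horizontal axis), of every kept probe set in 12 gene lists (rows), with orange for an adjusted p under 0.05 by limma and a black bar for the list median. The medians of the GABP targets (0.33) and of the neutrophil and monocyte markers (0.39) lie to the right of 0 and that of the SCL complex and heptad list (-0.22) to the left.

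The other marker lists gave the setting of these values. T-cell and thymocyte markers had 10 positive and 6 negative probe sets, with list means between 9.42 and 9.75 in the SCLtg LMO1tg arrays and between 9.23 and 9.59 in controls, and double positive thymocyte markers had 1 positive and 5 negative. All 8 kept NK and innate lymphoid probe sets were positive, where 49.8% of all kept probe sets were. They ran from 0.01 to 0.58, with a median of 0.22. Below the filter, *Ncr1* of this list was lower (-0.22) and *Id2* 1453596_at higher (0.15) in the SCLtg LMO1tg arrays. The 14 macrophage and dendritic cell probe sets had both signs and none at an unadjusted p under 0.05. Single markers of other cells ran with the labels. The red cell membrane protein *Slc4a1* had 5.21, 6.03 and 7.28 in SCLtg LMO1tg arrays and 4.96, 4.10 and 3.77 in controls for 1434502_x_at, a log2 difference of 1.90 (SE 0.48, adjusted p = 0.299), and 1.07 (SE 0.42) for 1416464_at, whose groups overlapped. The erythroid list had 3 positive and 2 negative probe sets and a median of 0.55. The B-cell genes *Ms4a1* (1423226_at, -0.77, SE 0.22) and *Cd79a* (-0.64, SE 0.14) and the stromal gene *Pdgfrb* (-1.16, SE 0.21, and -0.72, SE 0.21, in its 2 probe sets) were on the negative side, with groups that did not overlap. Their lists went both ways. The B-cell list had 3 positive and 2 negative kept probe sets, with a median of 0.008. The endothelium and stroma list had 4 positive and 7 negative, with a median of -0.10. The part of these cells in the member values was not tested. Of all these lists only *Ptcra*, given above, passed the adjusted threshold.

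The genes whose values ran most like those of *Ets2* over the 6 arrays were *Asrgl1*, an asparaginase (r = 0.997), *Socs3*, an inhibitor of cytokine signalling (0.989), *Slc25a4*, the mitochondrial ADP/ATP carrier (0.988), *Skp2* 1436000_a_at (0.988) and *Sec13*, a vesicle coat and nuclear pore protein (0.987). The most opposite were *Sash3*, a lymphocyte adaptor (-0.99), *Ifna9*, a type I interferon (-0.989), *Il1rap*, the interleukin-1 receptor partner (-0.988), *Mmp19*, a metalloproteinase (-0.981) and *Slc41a3*, of a magnesium transporter family (-0.981). The values of r are Pearson's over 6 arrays that share 2 groups, and all 10 genes had groups that did not overlap, so r holds the label difference as well as the spread within groups. The likeness was in shape and not in size. *Socs3* had 7.07, 7.11 and 7.10 in SCLtg LMO1tg arrays and 6.97, 6.92 and 6.92 in controls, a difference of 0.16, and *Skp2* 1436000_a_at had 6.08, 6.50 and 6.39 in SCLtg LMO1tg arrays and 5.82, 5.48 and 5.37 in controls, a difference of 0.77. Among the other 9 genes, *Ets1* 1452163_at had the highest r with *Ets2*, 0.83, and *Erg* the lowest, -0.831, and in the rest of the family *Elk4* 1422233_at had -0.837.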

How the data were processed

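RNA of thymocytes was hybridized to 6 Affymetrix mouse arrays (3 labelled SCLtg LMO1tg, 3 labelled control). The authors deposited log2 values made by RMA of the affy package (versions not given in the sources used here), 1 per probe set and array. They also removed probe sets called absent by MAS5 and applied rank products; absent calls were not repeated here. By the platform annotation 20393 probe sets had 1 gene, 691 had several and 1606 had none. Probe sets with at least 3 of 6 arrays at or above the array's 40th percentile were kept, 64 control probe sets were left out, and limma 3.58.1 (R 4.3.3) was fitted to all 13776, with Benjamini-Hochberg adjustment and a threshold of 0.05. The script was checked on simulated data. The precision is limited by the number of arrays. The members and gene lists were chosen with earlier results of these data known. The text names every member, the other kept ETS genes, up to 3 genes per list with the largest difference, the label checks, and the 5 genes most and the 5 least like *Ets2*. *Elane*, *Csf3r*, *Mmp8*, *S100a8*, *Ngp*, *Camp*, *Itgam* and *Cd177* stand for their marker list. *Csf1r*, *Slc4a1*, *Ms4a1*, *Cd79a*, *Pdgfrb*, *Ncr1* and *Id2* were named after their values were seen. Alternatives changed the filter, scaling, variance model, block, gene summary and arrays.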

Additional observations from a re-analysis of the deposited data

How the results depend on the processing

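The *Ets2* difference stayed positive in all 16 alternatives, between 1.19 and 1.51. Its adjusted p passed 0.05 under quantile normalization (1.22, 0.0313), array weights (1.502, 0.00195), the hybridization set as a block (1.19, 0.0131), gene-level fits on the probe set of highest mean (1.34, 0.0318) and on the mean of probe sets (1.34, 0.0276), and without SCLtg LMO1tg replicate 1 (1.51, 0.0358). In the others it did not, with values up to 0.386 without SCLtg LMO1tg replicate 3; leaving out 1 array at a time gave differences of 1.22 to 1.51. The number of passing members, and of passing ETS-family probe sets, was 1 in place of 0 in those 6 settings and at an adjusted p under 0.1, that one being *Ets2*, and ranged from 0 to 1 when 1 array was left out. The number of probe sets passing overall was 14, against 360 with array weights and 8 with the replicate number as a block, and 5 to 14 with 1 array left out. Arrays of the same number did not deviate together (residual correlations -0.631, 0.0538 and -0.382). Each such pair crossed the high and low hybridization sets, so these values cannot decide if the numbers pair arrays. With the replicate block the *Ets2* difference was 1.34 (limma adjusted p = 0.226). The cause of these changes was not tested. Uncalled relatives changed sign in some alternatives: *Elf4* 1421337_at in 5, *Fli1* 1433512_at and *Elf4* 1421338_at in 3, *Elf1* and *Elk3* 1448797_at in 2 and *Ets1* 1422027_a_at in 1. With 3 arrays a group, small differences were not detectable.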
